A study of Mus musculus with 35 samples.

Results

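MERVL and its relatives form the ERVL part of the mouse long terminal repeat (LTR) retrotransposons, and their transcripts were measured here in mouse zygotes and early 2-cell (2C) embryos. The embryos had received either Kdm5b-yfp mRNA or water. The members were the names in the table of repeat counts that begin with MERVL or MT2, with MT followed by A to E, with ORR1, or with MLT1 or MLT2. The rule found 126 of the 18536 repeat names in the table. Of these, 69 name LTRs and 57, which contain "-int", name the internal sequence between a pair of LTRs. By family they were 6 LTR and 2 internal names of MERVL/MT2, 9 and 10 of MT, 14 and 15 of ORR1, 30 and 30 of MLT1, and 10 LTR names of MLT2.

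ERVL elements are old retroviral insertions flanked by LTRs, which carry the promoter and the polyadenylation signal. MERVL is the mouse ERVL with internal coding sequence, MT2_Mm is the LTR of its complete copies, and its transcription at the 2-cell stage is a hallmark of zygotic genome activation in the mouse. MT, ORR1 and MLT1 belong to the MaLR group, which has lost the retroviral genes, and MT elements are abundant in oocyte transcripts, often as alternative promoters and first exons of genes. KDM5B is a demethylase that removes methyl groups from lysine 4 of histone H3, a mark of promoters.

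All embryos were wild-type C57BL/6NRj, from females of 3 to 4 weeks that had been superovulated. Nuclease-free water went into the controls, of which 10 were zygotes and 9 were 2C samples. Kdm5b-yfp mRNA at about 1150 ng/µl went into 10 other zygotes and into the embryos of 6 other 2C samples, and all were collected 5 to 6 h after injection. Zygotes were single embryos taken 17 h after ovulation, and 2C samples were taken 5.5 to 8 h after division. Of the control 2C samples, 6 were single intact embryos, 1 pooled 2 blastomeres of 2 embryos and 2 pooled 3 blastomeres of 3 embryos. Of the Kdm5b 2C samples, 5 were single intact embryos and 1 pooled 3 blastomeres of 3 embryos. The 2C embryos grew from cryopreserved zygotes, and zygote and 2C libraries were prepared on different days, so that stage, freezing and library day cannot be told apart. The controls received no mRNA, so that KDM5B and the injection of mRNA as such cannot be told apart either. Kdm5b took 5.11% ± 2.59 (SD, n = 10) of gene counts in injected zygotes and 0.000672% ± 0.000378 (SD, n = 10) in control zygotes. In 2C samples it took 11.9% ± 3.41 after Kdm5b injection (SD, n = 6) and 0.00746% ± 0.00577 in controls (SD, n = 9). These shares fit the labels, and the Kdm5b row was left out of all gene totals. The share after injection was higher at 2C, so that stage and Kdm5b level cannot be told apart in the Kdm5b groups.

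The estimated counts of all repeats added up to between 4131188 and 7284584 per sample. Members took 39.3% ± 2.00 of the repeat counts in control zygotes (SD, n = 10), 40.5% ± 1.93 in Kdm5b zygotes (SD, n = 10), 43.2% ± 4.47 in control 2C samples (SD, n = 9) and 41.2% ± 2.79 in Kdm5b 2C samples (SD, n = 6). Few names held most of this. MTA_Mm-int, the internal sequence of the youngest MT subfamily, held 65.8% ± 3.01 of the member counts in control zygotes (SD, n = 10) and 52.6% ± 8.498 in control 2C samples (SD, n = 9). Next in control zygotes came MTA_Mm, its LTR, with 20.98% ± 1.598, and MT2B1, an older relative of MT2_Mm, with 3.29% ± 0.507. In control 2C samples MERVL-int came second with 21.2% ± 9.94, before MTA_Mm with 15.9% ± 3.52 and MT2B1 with 2.55% ± 0.722. A mean under 10 counts was found for 18 names, and 108 passed the filter on low counts in both stage comparisons. The table pools all genomic copies under 1 name, gives no positions, and also counts reads from copies inside gene transcripts. Levels are not per length, so they compare samples and not names.

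The denominator matters for repeats in these samples. Repeats gave 34.5 ± 3.20 counts per 100 gene counts in control zygotes (SD, n = 10) and 56.2 ± 7.43 in control 2C samples (SD, n = 9), a 1.63-fold difference (two-sided exact permutation test, adjusted p = 0.000115 over 16 tests). In the Kdm5b groups they gave 35.4 ± 1.87 (SD, n = 10) and 54.4 ± 6.97 (SD, n = 6; exact permutation test, adjusted p = 0.000333). The rise was not limited to the members, since the other repeats went from 20.9 to 31.8 counts per 100 gene counts in the controls (exact permutation test, adjusted p = 0.000115). A member whose share of repeat counts was level between the stages was therefore higher in 2C samples relative to genes. Levels are given below on both scales, as repeat CPM (counts per 1000000 repeat counts of the sample) and gene CPM (counts per 1000000 gene counts without Kdm5b).

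MERVL-int was the member with the widest difference between the stages. In repeat CPM, the lowest, median and highest control zygote had 259, 2616 and 12792, and the control 2C samples 39629, 84793 and 191871. Kdm5b zygotes had 735, 1671 and 5760, and Kdm5b 2C samples 23791, 52117 and 93481. Every 2C sample lay above every zygote, with or without Kdm5b. The same held in gene CPM, where MERVL-int ran from 82.9 to 5419 in control zygotes, from 251 to 2099 in Kdm5b zygotes, from 18807 to 122537 in control 2C samples and from 11284 to 50324 in Kdm5b 2C samples. In edgeR's quasi-likelihood test with TMM normalization of the repeat counts, MERVL-int was higher in control 2C samples than in control zygotes by 5.02 on the log2 scale (SE 0.532, adjusted p = 1.30e-07). Between the Kdm5b groups it was higher at 2C by 4.78 (SE 0.439, edgeR, adjusted p = 9.50e-09).

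MT2_Mm, the LTR of MERVL, had a lowest, median and highest value of 482, 862 and 1558 repeat CPM in control zygotes and of 3033, 5051 and 13048 in control 2C samples. Kdm5b zygotes had 538, 731 and 1134, and Kdm5b 2C samples 2287, 3992 and 6175. The stages did not overlap in either pair of groups. MT2_Mm was higher at 2C by 3.33 on the log2 scale in the controls (SE 0.272, edgeR, adjusted p = 1.77e-09) and by 2.698 after Kdm5b injection (SE 0.208, adjusted p = 5.26e-10). The second internal name of the family, MERVL_2A-int, ran from 57.6 to 583 in control zygotes and from 1171 to 5164 in control 2C samples in repeat CPM. It was higher by 3.54 (SE 0.329, edgeR, adjusted p = 1.66e-08) and, in the Kdm5b groups, by 2.89 (SE 0.213, adjusted p = 2.75e-10).

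ORR1A0, a young ORR1 subfamily of the MaLR group, had both its LTR and its internal name called higher at 2C. In repeat CPM, ORR1A0-int had a lowest, median and highest value of 99.4, 134 and 188 in control zygotes and of 638, 1294 and 3743 in control 2C samples. It had 90.2, 117 and 141 in Kdm5b zygotes and 489, 755 and 2164 in Kdm5b 2C samples. The 2C samples were again all above the zygotes. ORR1A0-int was higher at 2C by 4.02 on the log2 scale in the controls (SE 0.279, edgeR, adjusted p = 1.81e-10) and by 3.36 in the Kdm5b groups (SE 0.229, adjusted p = 1.03e-10). Its LTR, ORR1A0, was higher by 2.05 (SE 0.221, adjusted p = 1.60e-07) and 1.75 (SE 0.139, adjusted p = 7.27e-10), with the control groups meeting at 89.7 in the highest zygote and 89.4 in the lowest 2C sample in repeat CPM.

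**Figure D1:**
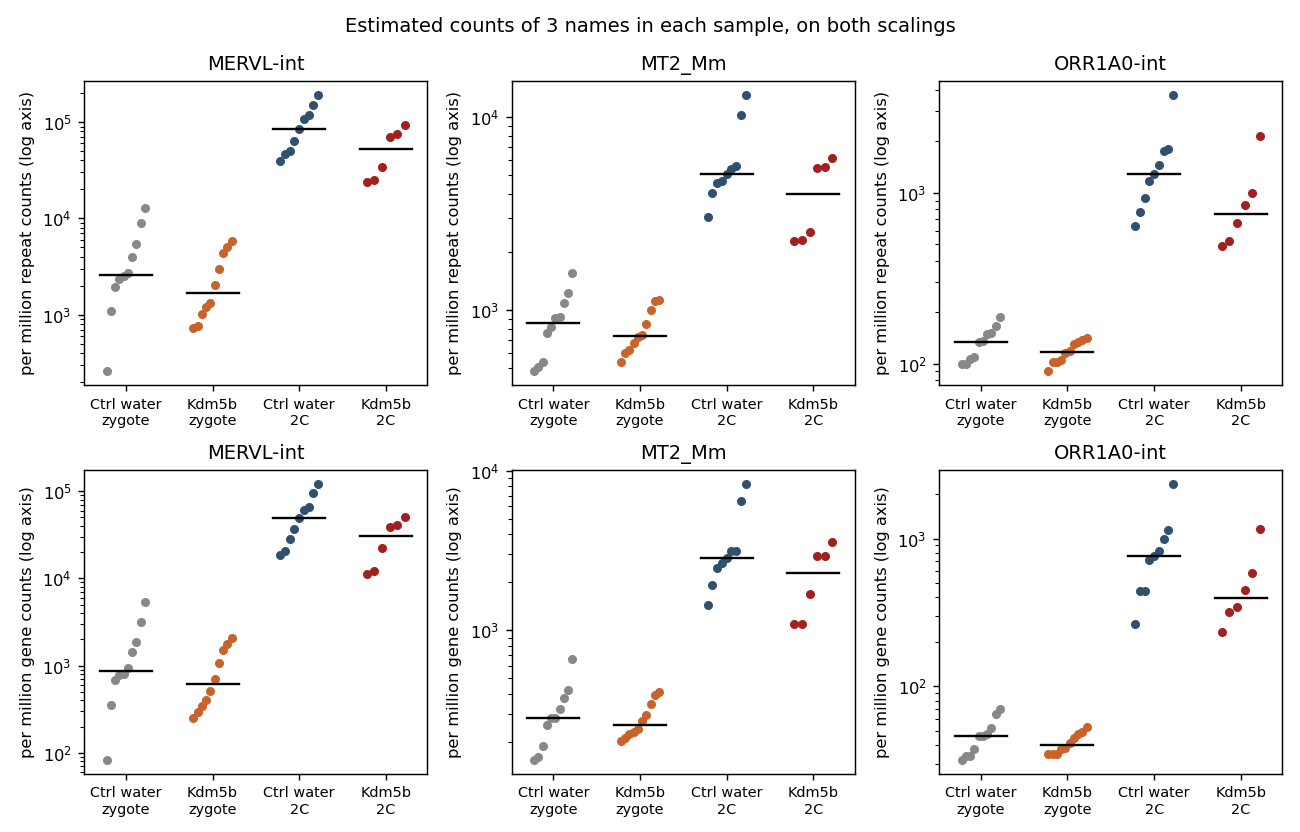
Estimated counts of MERVL-int, MT2_Mm and ORR1A0-int in every sample of the 4 groups, as repeat CPM (top) and gene CPM (bottom), on log axes. Each point is a sample, ordered by value within its group, and each bar is the group's median. For MERVL-int the 2C samples sit between 23791 and 191871 repeat CPM and the zygotes between 259 and 12792.

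MTB_Mm-int, an internal name of the MT family, went the other way. It had a lowest, median and highest value of 608, 879 and 1098 repeat CPM in control zygotes and of 166, 208 and 287 in control 2C samples. Kdm5b zygotes had 608, 852 and 944, and Kdm5b 2C samples 170, 253 and 282. The stages were apart in both pairs of groups. MTB_Mm-int fell by 1.46 on the log2 scale in the controls (SE 0.118, edgeR, adjusted p = 1.68e-09) and by 1.42 in the Kdm5b groups (SE 0.105, adjusted p = 3.17e-10).

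With calls limited to adjusted p values under 0.05 and differences of at least 1 on the log2 scale, 6 of the 108 members tested were higher and 1 was lower in control 2C samples, where 3.91% of all 2635 repeats tested were higher and 5.65% were lower (9.56% in either direction). The sixth higher name was ORR1A1-int (1.46, SE 0.200, edgeR, adjusted p = 5.37e-06), named after its value was seen. Among Kdm5b samples 5 members were higher and 2 lower, against 5.26% and 8.72% of 2740 repeats (14% in either direction). The second lower name there was ORR1G-int, which fell by 1.13 on the log2 scale (SE 0.237, edgeR, adjusted p = 0.000488). In the controls it was at -0.999 (SE 0.237, adjusted p = 0.00242), just short of the fold change limit. By adjusted p alone, 21 members were higher and 15 lower in the controls (12.6% and 12.9% of all repeats), and 38 and 18 in the Kdm5b groups (20.1% and 20.9%). Without adjustment, 47 members in the controls and 69 in the Kdm5b groups had a p under 0.05, beside 37% and 48.1% of all repeats. Most of the repeats tested are simple repeats, which are short tandem repeats. Among the 949 other repeats in the controls that are not simple repeats, 6.01% were called higher and 2.11% lower, beside 5.56% and 0.926% of the members, and among 978 in the Kdm5b groups 9% and 2.56%, beside 4.63% and 1.85% of the members. The median log2 difference in the controls was 0.15 for the members, 0.20 for the other repeats that are not simple and 0.06 for all repeats tested. Whether members were called more or less often than other repeats was not tested. In repeat CPM, 4 members were higher with no overlap between the control groups and 11 were lower with no overlap, beside 0.342% and 8.69% of all repeats. For the Kdm5b groups these counts were 6 and 16, beside 1.09% and 15.1%.

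By family, the calls in the controls stand beside 3.91% of all repeats called higher and 5.65% called lower. Whether families differed in how often they were called was not tested. Of the 8 MERVL/MT2 names tested in the controls, 3 were called higher and 0 lower, and all 8 had a positive log2 difference. Of the 29 ORR1 names, 3 were called higher and 0 lower. Of the 19 MT names, 0 were called higher and 1 lower, with a median of -0.10. Of the 42 MLT1 and the 10 MLT2 names tested, the oldest of these families, 0 were called in either direction. By adjusted p alone, with TMM normalization, 8 of the 19 MT names were lower and 2 higher, and 6 of the 8 MERVL/MT2 names were higher and 0 lower, beside the 12.6% of all repeats that were higher and the 12.9% that were lower. The summed MT names took the opposite direction in gene CPM, as given below. In the Kdm5b groups 3 of 8 MERVL/MT2 names were called higher and 0 lower, and of 29 ORR1 names 2 and 1. Of 19 MT names 0 were called higher and 1 lower, beside 5.26% and 8.72% of all repeats. Among MLT1 and MLT2 names 0 were called there. By adjusted p alone, 4 MERVL/MT2 names were higher and 0 lower, and 5 MT names higher and 8 lower, beside 20.1% and 20.9%.

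With TMM normalization, the stage differences of the most abundant LTR names of ORR1, MLT1 and MLT2 stayed far below 1 on the log2 scale. The same name led its family's LTRs in each of the 4 groups, whereas the leading ORR1 internal name was ORR1A2-int in zygotes, which differed between the control stages by -0.06 (SE 0.0965, edgeR, adjusted p = 0.684), and ORR1A0-int in 2C samples. ORR1D1, the most abundant ORR1 LTR, differed between the control stages by 0.21 on the log2 scale (SE 0.0691, edgeR, adjusted p = 0.0253). MLT2F, the most abundant MLT2 name, differed by 0.29 (SE 0.0891, adjusted p = 0.0190), and MLT1B, the most abundant MLT1 LTR, by -0.15 (SE 0.0831, adjusted p = 0.207). In repeat CPM their control means went from 983 to 816 (ORR1D1), from 298 to 263 (MLT2F) and from 379 to 245 (MLT1B). Between the Kdm5b stages MLT1B was lower with no overlap in repeat CPM, as were 15.1% of all repeats. MLT1-int, the most abundant MLT1 internal name, was at 0.44 between the control stages (SE 0.195, edgeR, adjusted p = 0.0983). MT2B1, with the most counts of any MT2 LTR, was at 0.23 (SE 0.0962, adjusted p = 0.0864), far from the 3.33 of MT2_Mm.

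The control and the Kdm5b stage comparisons share no samples. Over the 108 names tested in both, 91 had the same sign, and the log2 differences correlated across names with r = 0.93 and rho = 0.78, given as a description, since names share reads and libraries. Each comparison called 7 members, and 6 were called in both with the same direction. By adjusted p alone, 14 names were higher in both, which is 66.7% of those in the controls and 36.8% of those in the Kdm5b groups. The names lower in both numbered 13, or 86.7% and 72.2%.

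**Figure D2:**
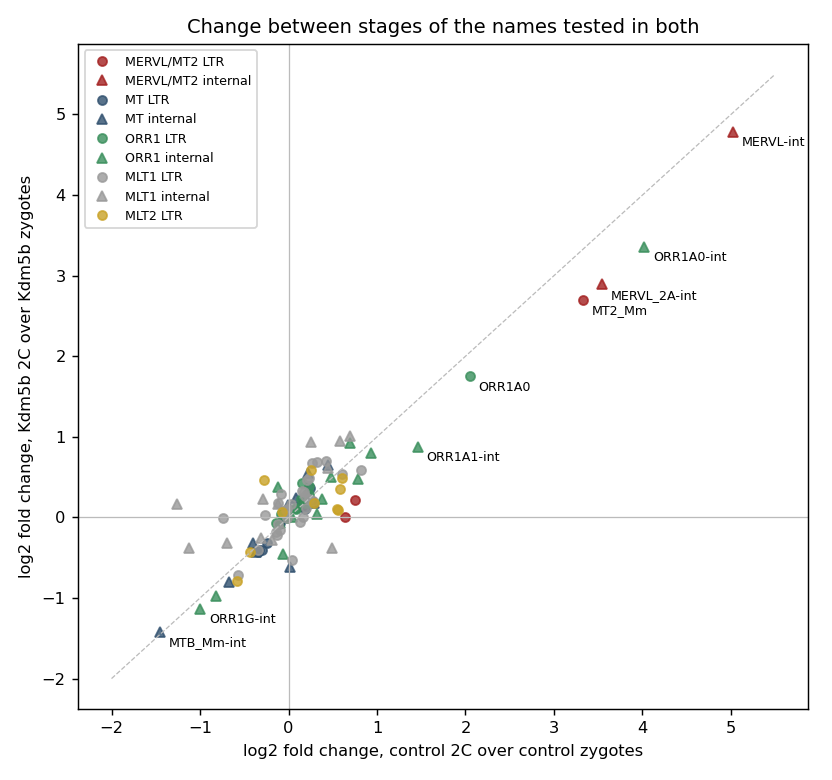
Log2 fold change of 2C samples over zygotes for the 108 members tested in both comparisons, controls on the x axis and Kdm5b groups on the y axis. Each point is a repeat name, and the called ones are labelled. MERVL-int lies farthest out at 5.02 and 4.78, and MTB_Mm-int at -1.46 and -1.42.

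The direction of the abundant MT names depended on the scaling. MTA_Mm-int had medians of 255168 repeat CPM in control zygotes, 261721 in Kdm5b zygotes, 229753 in control 2C samples and 235935 in Kdm5b 2C samples. In gene CPM the order of the stages turned, with medians of 85882, 89839, 117696 and 125539. With TMM normalization its control stage difference was 0.29 on the log2 scale (edgeR, adjusted p = 0.0420). It was -0.20 with scaling by repeat totals (adjusted p = 0.0840) and 0.49 with scaling by gene totals (adjusted p = 0.000410). MTA_Mm behaved alike, at 0.18, -0.29 and 0.40. MERVL-int (4.49 to 5.27), MT2_Mm (2.81 to 3.63) and MTB_Mm-int (-1.94 to -1.15) kept their direction and their call in the controls under all scalings tried.

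Calls over all members moved with the scaling in the same way. In the controls, scaling by repeat totals gave 5 members higher and 9 lower, with the median of all repeats at -0.42 on the log2 scale. Scaling by gene totals gave 8 higher and 1 lower, with that median at 0.27. Kdm5b samples gave 5 and 6 by repeat totals (median of all repeats -0.29), and 10 and 1 by gene totals (0.32). With TMM normalization the median of all repeats was 0.06 in the controls and 0.04 in the Kdm5b groups.

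Summed by family, the internal names of MERVL/MT2 went from 0.453% ± 0.404 of repeat counts in control zygotes (SD, n = 10) to 9.73% ± 5.35 in control 2C samples (SD, n = 9). This was a 21.5-fold difference in means (two-sided exact permutation test, adjusted p = 0.000260 over 72 tests of 9 sums, 2 scales and 4 comparisons). After Kdm5b injection they went from 0.279% ± 0.198 (SD, n = 10) to 5.51% ± 3.03 (SD, n = 6), 19.7-fold (exact permutation test, adjusted p = 0.000817). In gene CPM the folds were 34.3 and 30.5, and with medians in place of means 52.3 and 45.4. The LTR names of the same family, of which MT2B1 holds most, took 1.54% ± 0.199 in control zygotes and 1.86% ± 0.469 in control 2C samples, a 1.21-fold difference (exact permutation test, adjusted p = 0.132). In gene CPM this sum was 1.98-fold higher in the controls (adjusted p = 0.000390, exact permutation test) and 1.68-fold higher in the Kdm5b groups (adjusted p = 0.000817).

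The MT sums changed direction with the denominator. MT LTR names took 9.43% ± 0.791 of repeat counts in control zygotes (SD, n = 10) and 7.48% ± 1.13 in control 2C samples (SD, n = 9), a fold of 0.793 (exact permutation test, adjusted p = 0.00203). In gene CPM the fold was 1.28 (adjusted p = 0.0175, exact permutation test). MT internal names took 26.5% ± 1.83 and 22.9% ± 3.54, a fold of 0.864 (adjusted p = 0.0325, exact permutation test), and in gene CPM the fold was 1.39 (adjusted p = 0.000974). ORR1 LTR (0.804 and 1.298), MLT1 LTR (0.732 and 1.18) and MLT2 LTR sums (0.774 and 1.24) turned likewise in the controls, each past an adjusted p of 0.05 on both scales. ORR1 internal names did not turn, with folds of 1.34 in repeat CPM (exact permutation test, adjusted p = 0.00303) and 2.23 in gene CPM (adjusted p = 0.000260).

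Over the 9 sums, 2 were higher and 5 lower in repeat CPM in the controls, while 8 were higher and 0 lower in gene CPM. In the Kdm5b groups 1 was higher and 3 lower in repeat CPM, and 9 were higher and 0 lower in gene CPM. With single intact embryos only, the count of 8 in the controls became 4, namely MERVL/MT2 LTR, MERVL/MT2 internal, MT internal and ORR1 internal, and the 5 lower sums in repeat CPM became 3 (MT LTR, MLT1 LTR and MLT2 LTR). With medians in place of means the same 3 were lower in repeat CPM. Of the 5 sums past the threshold in opposite directions on the 2 scales in the controls, 0 were so with single intact embryos and 2 (MT LTR and MLT2 LTR) with medians.

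**Figure D3:**
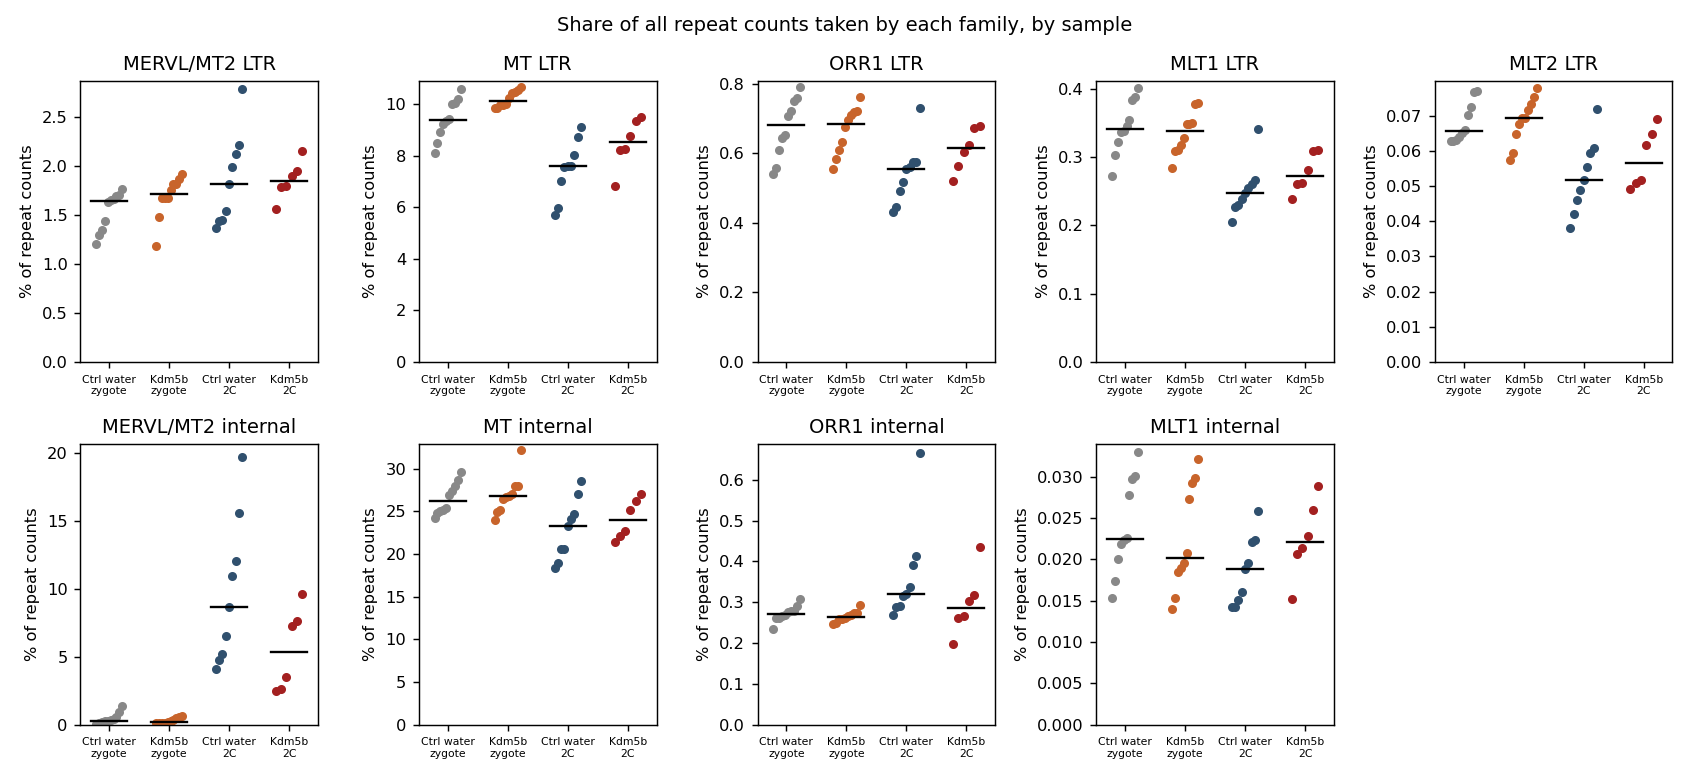
Percent of repeat counts taken by the LTR and the internal names of each family in every sample of the 4 groups. Each point is a sample and each bar a group median. MERVL/MT2 internal names sit at a median of 0.291% in control zygotes and 8.69% in control 2C samples, while MT internal names hold between 18.3% and 32.3% in every sample.

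In some subfamilies the LTR and the internal name moved by different amounts between the stages. Pairs were matched by name, with MT2_Mm paired to MERVL-int, and 35 of the 53 pairs had enough counts. The log2 ratio of LTR to internal counts does not depend on the scaling. For MT2_Mm over MERVL-int it ran from -3.04 to 0.89 in control zygotes, with a mean of -1.73 ± 1.10 (SD, n = 10), and from -4.40 to -3.44 in control 2C samples, with a mean of -3.89 ± 0.337 (SD, n = 9). No 2C sample was as high as a zygote. The difference of -2.16 had an adjusted p of 0.000650 (two-sided exact permutation test, over 140 tests), and in the Kdm5b groups it was -2.34 (exact permutation test, adjusted p = 0.00109).

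Of the 35 pairs, 5 shifted toward the LTR and 6 toward the internal name between the control stages (17 at an unadjusted p under 0.05). Among Kdm5b samples 7 shifted each way. Both comparisons had 10 pairs in common, which is 90.9% of the control pairs and 71.4% of the Kdm5b pairs, and all 10 shifted the same way. Toward the internal name went MT2_Mm with MERVL-int, ORR1A0 (-1.90 in the controls and -1.44 in the Kdm5b groups), ORR1A1 (-1.12 and -0.63), ORR1D2 (-0.90 and -0.55) and ORR1D1 (-0.48 and -0.64). Toward the LTR went ORR1G (1.18 and 1.39), MTB_Mm (1.11 and 0.99), ORR1A4 (1.03 and 1.27), MTE2b (0.55 and 0.49) and MTB (0.37 and 0.39). ORR1A subfamilies were thus found on both sides. ORR1B2 (-0.46) passed in the controls alone, and ORR1A2 (0.63), ORR1C2 (0.49), MTD (-0.55) and MTEb (-0.72) in the Kdm5b groups alone, and whether these differ between injections was not tested. MTA_Mm over MTA_Mm-int was level, at -1.65 ± 0.173 in control zygotes (SD, n = 10) and -1.74 ± 0.368 in control 2C samples (SD, n = 9; exact permutation test, adjusted p = 0.749).

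**Figure D4:**
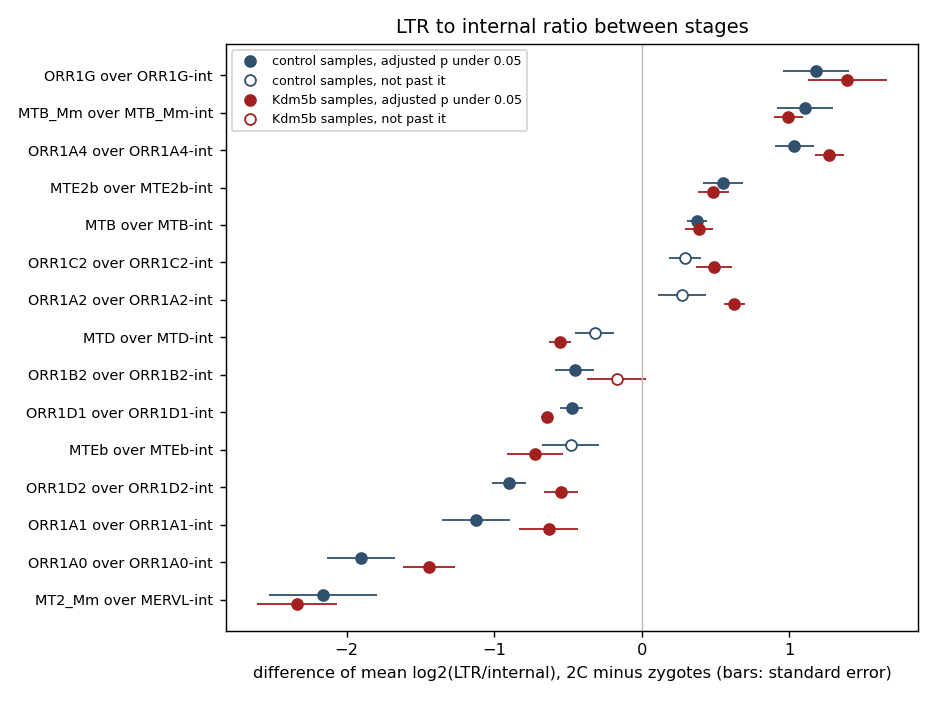
Difference between 2C samples and zygotes in the log2 ratio of LTR to internal counts, for the 15 pairs past an adjusted p of 0.05 in either stage comparison. Bars are standard errors and filled points are those past the threshold. MT2_Mm over MERVL-int lies lowest, at -2.16 in the controls and -2.34 in the Kdm5b groups, and ORR1G highest, at 1.18 and 1.39.

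MERVL-int was among the members that varied most between samples of 1 group. Among the 90 names with a mean of at least 100 counts, the coefficient of variation of MERVL-int in repeat CPM was 92.6% in control zygotes and 75.2% in Kdm5b zygotes, the highest of all, beside medians of 15.5% and 12.8%. In 2C samples it was 55.1% in controls and 55.5% after Kdm5b injection, second to ORR1A0-int (61.7% and 66.2%), beside medians of 24.3% and 16.6%. The highest control zygote had 49.4 times the MERVL-int level of the lowest, or 11.6 times that of the next lowest when the lowest, at 259 repeat CPM, is left out, and the highest control 2C sample 4.84 times that of the lowest. Kdm5b 2C samples fell into 3 with 23791, 25016 and 33889 and 3 with 70345, 74450 and 93481 repeat CPM. By the strips of 8 that the labels' index numbers make, control zygotes had means of 2847 (strip 8), 6625 (strip 9) and 2141 (strip 10), and Kdm5b zygotes 1251, 3991 and 2139, so that strip 9 was high in both groups. Its part in the spread was not tested.

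MT2_Mm and MERVL-int rose and fell together between samples of 1 group, as log2 levels. In control zygotes Pearson's r was 0.912 (permutation p = 0.00014, adjusted 0.00042 over 6 relations) and Spearman's rho 0.964 (permutation p = 0.0001), and r without the 2 samples farthest from the median was 0.920. In Kdm5b zygotes r was 0.925 (permutation p = 0.00039, adjusted 0.00078), rho 0.867 (permutation p = 0.00228) and r without the 2 farthest 0.852. In control 2C samples r was 0.912 (exact permutation p = 3e-05, adjusted 0.00018), rho 0.967 (exact permutation p = 0.00016) and r without the 2 farthest 0.853. Within strip 12, the only strip with 6 samples of a group, r was 0.990. That strip held control 2C replicates 4 to 6, which were single intact embryos, and replicates 7 to 9, which were pools. The other strips held too few samples for a value. The 6 Kdm5b 2C samples fall into separate clusters of 3, too few for a value within each, so their pooled values for this relation and the next are not given, although both count among the 6 relations of the adjustment. Both names share a denominator and neighbouring sequence.

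Genes of the 2-cell programme were measured in the same libraries. Of 29 genes listed as 2-cell genes, some of them known to be transcribed from MT2_Mm LTRs, 27 were in the gene table and 22 could be tested between the control stages. There 20 were higher in 2C samples, where 9.20% of all 11968 genes were higher and 13.0% lower. The median log2 difference of the 22 was 5.30, beside 0.02 for all genes. Between the zygote groups only 11 of the 27 could be tested. Others thus passed the filter on low counts only through their 2C counts, so the count and the median describe the list and do not test it. Gm5662 had 0.0591 ± 0.108 gene CPM in control zygotes (SD, n = 10) and 55.5 ± 36.2 in control 2C samples (SD, n = 9; edgeR, adjusted p = 6.19e-13). Zscan4a, a telomere regulator that marks 2-cell-like cells, had 0.215 ± 0.237 and 30.5 ± 12.8 (adjusted p = 8.54e-12). Gm8300 went from 0.217 to 46.6 gene CPM (adjusted p = 1.78e-11), and Ubtfl1 had 30.0 in control 2C samples (adjusted p = 1.44e-10). Several of these genes belong to families of near-identical copies among which reads may be split. In the Kdm5b groups 18 of 21 were higher, where 10.5% of 12390 genes were higher and 16.0% lower. The limit set by the filter on low counts holds for this count too.

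Over control 2C samples the log2 level of MERVL-int followed that of the summed 2-cell genes, with r = 0.862 (permutation p = 0.00252, adjusted 0.00378) and rho = 0.883 (permutation p = 0.00314). Without the 2 samples farthest from the median r was 0.715, and within strip 12 it was 0.929. The sum was led by Sp110, a nuclear body protein, with 534 ± 130 of a total of 1338 ± 396 gene CPM in control 2C samples (SD, n = 9) and 678 ± 90.6 of 835 ± 75.3 in control zygotes (SD, n = 10).

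Of 20 known repressors of MERVL tested between the control stages, 3 were called higher and 1 lower, beside 9.20% and 13.0% of all genes. Suv39h1, a histone H3 lysine 9 methyltransferase (3.71, SE 0.570, edgeR, adjusted p = 5.34e-06), Cbx3, a heterochromatin protein (2.80, SE 0.442, adjusted p = 7.74e-06), and Hdac1, a histone deacetylase (2.18, SE 0.279, adjusted p = 3.46e-07), were higher at 2C. Dnmt1, the maintenance DNA methyltransferase, fell by 2.37 (SE 0.161, adjusted p = 1.74e-11). In the Kdm5b groups 3 were higher and 4 lower, beside 10.5% and 16.0% of all genes. The 4 above were called in the same directions, and Chaf1a (-1.24), Setdb1 (-1.10) and Trim28 (-1.01), which act in chromatin assembly and in silencing of retroviral elements, were also lower. DESeq2, which called 12% of 16502 genes higher and 12.2% lower, called these genes too, apart from Trim28, which at -0.96 (SE 0.176, DESeq2, adjusted p = 2.13e-07) fell short of the fold change limit. In the controls DESeq2 also called Ehmt2 higher (1.58, SE 0.643, adjusted p = 0.0332), beside 11.1% of 16243 genes higher and 10.2% lower. Without the filter on low counts, Trim28 was called lower in the controls too (-1.08, SE 0.165, edgeR, adjusted p = 2.84e-06). Between Kdm5b and control 2C samples 0 of 20 repressors were called by edgeR, beside 0% of all genes higher and 0.00817% lower. The interaction of injection and stage also called 0 of 20, beside 0.00726% of all genes in each direction. A further list held activators or candidate activators of MERVL, called activators for short. Among 9 of them tested between the control stages, Obox3 was higher (5.42, SE 0.721, edgeR, adjusted p = 6.55e-07). Obox2 was lower (-1.07, SE 0.179, edgeR, adjusted p = 1.68e-05). Both are homeobox genes of the Obox multigene family. Of the 9 activators, 6 had a positive log2 difference in the controls, with a median of 0.08 beside 0.02 for all genes. In the Kdm5b groups 1 of 9 was called higher and 1 lower, beside 10.5% and 16.0% of all genes. There 2 of 9 were positive, with a median of -0.72 beside 0.007 for all genes. Whether the activators as a set differ between injections was not tested. Between the zygote groups 19 repressors and 8 activators could be tested. The limit set by the filter on low counts thus holds for these lists too, and their counts and medians are a description.

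Markers of the embryo and of attached cells were read beside these results. All 12 oocyte and zygote markers were detected, led by Bmp15, and Ooep, Padi6, Nlrp5 and Tle6, maternal proteins of the subcortical complex and its lattices, were lower at 2C in the controls by 1.60 to 1.81 on the log2 scale. These were 4 of 12, with 0 higher, beside 13.0% and 9.20% of all genes. Of 14 cumulus cell markers 2 could be tested and 0 were called (edgeR, 1 at an unadjusted p under 0.05). Their summed level was 25.3, 29.3, 25.0 and 17.5 gene CPM in control zygotes, Kdm5b zygotes, control 2C and Kdm5b 2C samples, with Cyp19a1 the most abundant, and Ptx3, Inha and Amh were at 0 in all 9 control 2C samples and Inhba, Inha and Amh in all 6 Kdm5b 2C samples. Their part in the results was not tested.

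Kdm5b-yfp injection gave no called member in zygotes. Of 107 members tested, 0 passed in either direction by edgeR and 0 by DESeq2, beside 0% of 2616 repeats, and 4 had an unadjusted p under 0.05, beside 5.35% of all repeats. The smallest p values belonged to MT2B1 (0.20, SE 0.0725, adjusted p = 0.838), MTA_Mm (0.15, SE 0.0625, adjusted p = 0.838) and MTB (0.12, SE 0.0521, adjusted p = 0.857). MERVL-int was at -0.73 (SE 0.460, edgeR, adjusted p = 0.872) and MT2_Mm at -0.12 (SE 0.167, adjusted p = 0.958). A difference of this size in MERVL-int did not pass at the spread between these embryos.

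The family sums gave 1 exception in zygotes. MT LTR names took 94277 ± 7912 repeat CPM in control zygotes (SD, n = 10) and 101957 ± 3012 in Kdm5b zygotes (SD, n = 10), a 1.08-fold difference (permutation test with 100000 resamples, p = 0.00880, adjusted p = 0.0244 over 72 tests). The groups overlapped, from 80839 to 105713 and from 98547 to 106474. The Kdm5b mean was the higher within each strip, at 102118 beside 90934 (strip 8), 102337 beside 98068 (strip 9) and 100873 beside 93381 (strip 10). In gene CPM the fold was 1.11 (permutation test, adjusted p = 0.159). Most of this sum is MTA_Mm, which had 82502 ± 7618 and 89880 ± 2780 repeat CPM (SD, n = 10 each) and was not called by itself.

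Between Kdm5b and control 2C samples, 0 of 108 members were called by edgeR and 0 by DESeq2, beside 0% of 2692 repeats. The groups of 0 members were apart in repeat CPM, beside 0.0743% of all repeats that were higher with no overlap. An unadjusted p under 0.05 was found for 14, beside 6.61% of all repeats. Of these 14, MERVL-int, MERVL_2A-int, ORR1A0-int, MT2_Mm, ORR1A1-int, MT2B2, MT2C_Mm, MLT1E and ORR1A2-int had log2 differences below 0. Those above 0 were ORR1D1-int at 0.31 (SE 0.108, edgeR, adjusted p = 0.615), MLT1F2 at 0.33, ORR1C2 at 0.25, ORR1C1-int and MLT2B1. Over all members tested, 73 of 108 had a positive log2 difference, with a median of 0.06, beside 1332 of the 2692 repeats. MERVL-int was at -0.94 on the log2 scale (SE 0.386, edgeR, adjusted p = 0.740), MERVL_2A-int at -0.82 (SE 0.326, adjusted p = 0.730), ORR1A0-int at -0.80 (SE 0.378, adjusted p = 0.745), ORR1A1-int at -0.66 (SE 0.283, adjusted p = 0.740) and MT2_Mm at -0.72 (SE 0.321, adjusted p = 0.741). The stage comparison of the controls uses the same control 2C samples, so its calls for these names are no independent support for a direction here. For each of the 5 the groups overlapped. MERVL_2A-int, for example, ran from 877 to 2437 repeat CPM in Kdm5b 2C samples and from 1171 to 5164 in the controls. The 3 smallest p values belonged to ORR1A2-int (-0.41, SE 0.121, adjusted p = 0.404), ORR1C1-int (0.60, SE 0.190, adjusted p = 0.471) and MLT2B1 (0.65, SE 0.220, adjusted p = 0.615).

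Index strip was uneven in 2C samples, with 3 control and 5 Kdm5b samples on strip 11 and 6 and 1 on strip 12. On strip 11 the mean MERVL-int level was 91556 in controls (n = 3) and 50126 after Kdm5b injection (n = 5) in repeat CPM. With strip as a covariate the difference was -0.86 (edgeR, adjusted p = 0.346) for MERVL-int and -0.47 (adjusted p = 0.559) for MT2_Mm. Within strip 11 it was -1.01 (adjusted p = 0.384) and -0.58 (adjusted p = 0.486). Strip 12 held 1 Kdm5b sample, at 70345, beside a control mean of 96324.

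**Figure D5:**
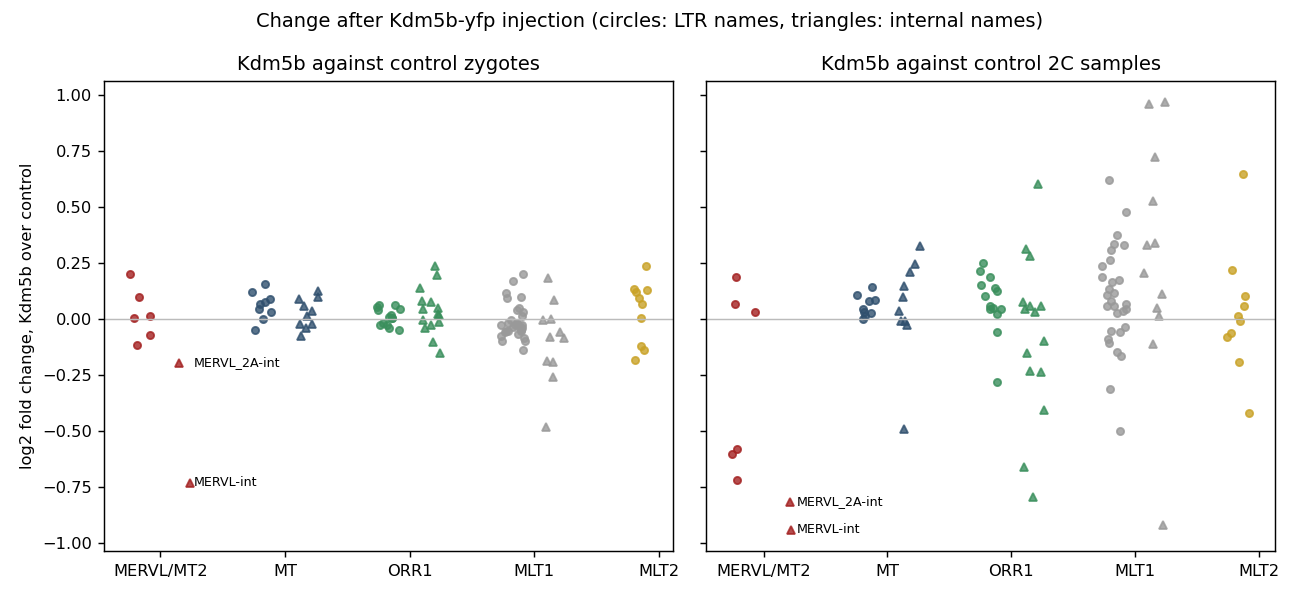
Log2 fold change of Kdm5b over control samples for each member tested, by family, in zygotes (left) and 2C samples (right). Circles are LTR names and triangles internal names. MERVL-int lies lowest of the members in both panels, at -0.73 and -0.94, and 0 members were called in either.

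The interaction of injection and stage, fitted over all 35 samples, called 0 of 109 members (edgeR), with 9 at an unadjusted p under 0.05, beside 6.66% of all repeats. Its smallest p values belonged to MLT2B1 (0.74, SE 0.221, adjusted p = 0.346), ORR1A2-int (-0.39, SE 0.121, adjusted p = 0.376) and MT2C_Mm, an MT2 LTR (-0.63, SE 0.239, adjusted p = 0.506). MERVL-int was at -0.23 (SE 0.680, adjusted p = 0.979). No LTR to internal ratio passed in the Kdm5b comparisons (exact or 100000-resample permutation tests, 1 pair in each at an unadjusted p under 0.05).

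Among the genes, 1 of the listed activators or candidate activators was called between Kdm5b and control 2C samples. Obox7, a homeobox gene of the Obox family, had a lowest, median and highest level of 77.9, 101 and 109 gene CPM in controls and of 26.0, 41.8 and 71.1 after Kdm5b injection, with no overlap. It fell by 1.07 on the log2 scale (SE 0.183, edgeR, adjusted p = 0.0287), and 0.00817% of all 12244 genes tested were called lower. On strip 11 its means were 89.5 (n = 3) and 43.8 (n = 5). It was also called in the interaction (-1.04, SE 0.191, edgeR, adjusted p = 0.0152), where 0.00726% of all 13778 genes were lower and 0.00726% higher. The interaction uses the same 2C samples, so its call of Obox7 is no independent support. Reads could be split among the near-identical Obox genes. Of the 27 2-cell genes 0 were called by edgeR, 6 had an unadjusted p under 0.05, beside 9.41% of all genes tested, and 25 had a negative log2 difference, beside 50.3% of all genes, with a median of -0.59 beside -0.0029 for all genes. These genes were measured in the same libraries, on unevenly filled strips, and some are near-identical copies. They are therefore not separate observations, and their number and median are only a description. The lowest p values were those of Zscan4a (-1.69, SE 0.402, adjusted p = 0.154) and Gm8300 (-1.41, SE 0.365, adjusted p = 0.234), which DESeq2 called (-1.71, adjusted p = 0.00217, and -1.42, adjusted p = 0.00683), beside 0.109% of the 5503 genes with a DESeq2 adjusted p that were lower and 0.0182% that were higher. In zygotes 0 listed genes were called by edgeR, beside 0.00838% of all 11933 genes higher.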

How the data were processed

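The authors trimmed the reads with fastp 0.21.0, aligned them to GRCm38 with STAR 2.7.3a and deposited counts per gene from featureCounts 1.5.1, whole and not normalized. The authors also deposited estimated counts per repeat name from SalmonTE, which aligned reads to all RepeatMasker copies of a name with 25 bases of flank and splits shared reads, and they removed repeats that overlap Kdm5b exons. The Salmon version and the use of strand for repeats are not given in the sources used here. Of the repeat values 5.03% were not whole, and all were rounded.

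Repeats and genes were each fitted on all rows and on the groups compared (the interaction on all 35 samples), by the quasi-likelihood test of edgeR 4.0.16 in R 4.3.3, after filterByExpr with a minimum count of 10 and TMM normalization. P values were adjusted by Benjamini-Hochberg, and a call needs one under 0.05 with a log2 difference of at least 1 in size. Ratios were log2 with 0.5 added, over pairs with a mean of at least 10 counts. Sums, ratios and totals were compared with two-sided permutation tests on the difference of means, exact where a group had fewer than 10 samples and with 100000 resamples otherwise (scipy 1.17.1, numpy 2.4.6, pandas 2.3.3, Python 3.11.15). DESeq2 1.42.0 was an alternative, and figures used matplotlib 3.10.9. Replicates are separate embryos or pools of embryos. In simulated data, edgeR recovered 64.2% of repeats changed by 1.5 on the log2 scale and 91.7% of those changed by 2.5 between Kdm5b and control 2C samples (2545 repeats), and 100% of both in zygotes (2551 repeats). Many repeats were changed at once in these simulations, and none by less than 1.5. They therefore do not show whether a smaller difference, such as the -0.94 of MERVL-int between the 2C groups, could have been called.

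Named are MT2_Mm, MERVL-int, MTA_Mm and MTA_Mm-int, the most abundant names of each family, up to 5 higher and 5 lower calls of each stage comparison by p, the 3 smallest p values of the others, every ratio past 0.05, and up to 4 higher and 4 lower genes of each list. Members at an unadjusted p under 0.05 between the 2C groups are named as well. The members, lists and tests were chosen with earlier results of these data known. No file used here held the sequences of the repeats. The result of 1 gene of the 2-cell list is not reported here.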

Additional observations from a re-analysis of the deposited data

Results flagged for a closer look

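Of 116 groups of samples checked, 12 had a highest or lowest sample apart from the others by Dixon's criterion, which chance meets in about 1 of 20 groups. Values are repeat CPM. Control 2C replicate 1 was highest in MTB (1751), ORR1D1 (1116), the ORR1 LTR sum (7292) and the MLT1 LTR sum (3414). Control 2C replicate 6 was highest in ORR1A0-int (3743, next 1796) and in the ORR1 internal sum (6653), and control 2C replicate 2 in ORR1A2-int (688). Kdm5b 2C replicate 1 was highest in ORR1A0-int (2164, next 1002). Kdm5b zygote replicate 8 was highest in MTA_Mm-int (316881) and in the MT internal sum (322503). Control zygote replicate 5 was lowest in ORR1C1-int (71.4). The log2 ratio of MT2_Mm over MERVL-int was 0.89 in control zygote replicate 10, with the next zygote at -1.12. No member passed the test of a difference in effect between the stages.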

How the results depend on the processing

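No call of a member turned into a call in the opposite direction under any alternative, though the uncalled MTA_Mm-int and MTA_Mm changed sign with the scaling. Family sums did turn, with 5 in the controls (MT LTR, MT internal, ORR1 LTR, MLT1 LTR and MLT2 LTR) and 3 in the Kdm5b groups (MT LTR, MLT1 LTR and MLT2 LTR) lower past the threshold in repeat CPM and higher past it in gene CPM. In the controls, calls of higher members numbered 6, and became 10 with TMM factors from the gene counts and 21 with no limit on the fold change. Lower calls numbered 1, and became 9 by repeat totals, 2 with DESeq2 size factors, the DESeq2 Wald test, no filter on low counts, simple repeats left out or the replicate block, 3 with single intact embryos only, 7 by the totals of the other repeats and 15 with no fold change limit. In the Kdm5b groups 5 higher calls became 10 by gene totals, 16 with gene TMM factors and 38 with no limit, and 2 lower calls became 6 by repeat totals or by the totals of the other repeats, 1 by gene totals, gene TMM factors or the replicate block, 4 without simple repeats and 18 with no limit. Leaving out each sample gave 6 to 7 higher and 1 to 2 lower calls in the controls, and 5 to 6 and 2 to 3 in the Kdm5b groups. In those fits the stage difference of MERVL-int ran from 4.82 to 5.42 and from 4.54 to 4.99. The second lower call of the controls was ORR1G-int. Kdm5b comparisons and the interaction gave 0 member calls in every alternative and with each sample left out. Without the filter 4 activators were called between the Kdm5b stages (main 2), DESeq2 called 2 of the 2-cell genes between the 2C groups (main 0), family sums in gene CPM past the threshold in the controls fell from 8 to 4 with single intact embryos, MT internal and ORR1 LTR lost their lower calls in repeat CPM with single intact embryos and with medians, and 1 sum (MT LTR) passed in gene CPM in zygotes with medians (main 0). The MT LTR difference in zygotes kept its call without each of the 20 samples (fold 1.07 to 1.10, adjusted p 0.00487 to 0.0441). The causes were not tested. Same-numbered samples correlated between -0.185 and 0.203, and over 0.1 in 4 of 10 zygote pairs and in 0 pairs elsewhere, so the numbers were not read as pairs. Scaling by other repeats, strip 11 alone and the zygotes left out of the MT LTR sum were chosen after seeing the data.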
